A study of Mus musculus with 6 samples.

Results

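Tumour macrophages that carried Trem2 and the complement C1q genes, and in which no Mmp12 was read, were taken from single-cell RNA sequencing of mouse mammary tumours. The cells were chosen by their measured values. Each had to hold at least 5 UMIs (unique molecular identifiers, 1 per captured transcript) over C1qa, C1qb and C1qc and at least 1 UMI of Trem2. Each had to hold 0 UMIs of Mmp12, Mrc1, the T cell gene Cd3e and the epithelial gene Epcam. Cells were first filtered for 500 or more UMIs, 200 or more genes and a mitochondrial share of no more than 20%, which 18293 cells passed. The rule found 1465 of them. Of these, 624 came from the Primary library, 791 from Recurrent, 20 from Dormant and 30 from Long-term dormant.

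The mice were of strain FVB (FVB.rGH-Luc-GFP), and the tumours were transplanted mammary tumours in which a B/B homodimerizer, injected every 3 days, drove early growth. The genotype was given as MMTV-Wnt1/iFGRR1 for Dormant, MMTV-Wnt1/iFGRR2 for Primary, MMTV-Wnt1/iFGRR3 for Recurrent and MMTV-Wnt1/iFGRR4 for Long-term dormant. MMTV is a promoter active in mammary epithelium. The mice were aged 8 to 10 weeks for Primary, 10 to 12 weeks for Dormant, 20 to 22 weeks for Recurrent and 32 to 34 weeks for Long-term dormant. Treatment began at a tumour diameter of 7 to 9 mm, and consisted of NVP-BGJ398, an inhibitor of FGF receptors, given for 14 days and then withheld for another 14. Residual tissue was then collected or the mice were left for recurrence. The labels carry 1 treatment text for all libraries and do not say separately how the Primary tumour was handled. Single cells were frozen, thawed and sorted as live by DAPI, with 10000 cells targeted, and all 4 libraries used version 2 of the Chromium 3' kit. The labels do not give the number of mice behind a library. Each stage was 1 library, so no test between stages was possible. Stage, age, library and any difference in drug treatment between Primary and the other libraries cannot be told apart. All 95% intervals below cover counting error only. The IgG and Jag1 antibody libraries were not analysed here.

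TREM2 is a lipid-sensing receptor of tissue macrophages that signals through the adaptor TYROBP, and macrophages that carry it take up lipid and dead cells in many tumours. C1q starts the classical complement cascade and marks mature tissue macrophages. MMP12, macrophage elastase, cuts elastin and other matrix proteins and is made by a subset of tumour macrophages, whereas MRC1, the mannose receptor CD206, is frequent on resident-like macrophages of the mammary gland. On mm10, in the GENCODE annotation, the protein-coding gene Trem2 lies at chr17:48346401-48354147 on the plus strand and Mmp12 at chr9:7344381-7369499 on the plus strand.

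Chemokine and interferon-responsive genes were among the groups that differed between the Recurrent and Primary cells, so 4 promoters of such genes are shown. Each is the 250 bases before a RefSeq transcription start on build GRCm38.p6, written 5′ to 3′ on the gene's strand. Capitals mark matches on either strand to the NF-kB binding consensus (kappaB) in the promoters of Cxcl2 and Cxcl10 and to the interferon-stimulated response element core TTTCNNTTTC in those of Isg15 and Ifit3. The stretches stand at chr5:90903649-90903898 (plus strand) for Cxcl2, chr5:92348890-92349139 (minus strand) for Cxcl10, chr4:156200819-156201068 (minus strand) for Isg15 and chr19:34583279-34583528 (plus strand) for Ifit3.
Cxcl2: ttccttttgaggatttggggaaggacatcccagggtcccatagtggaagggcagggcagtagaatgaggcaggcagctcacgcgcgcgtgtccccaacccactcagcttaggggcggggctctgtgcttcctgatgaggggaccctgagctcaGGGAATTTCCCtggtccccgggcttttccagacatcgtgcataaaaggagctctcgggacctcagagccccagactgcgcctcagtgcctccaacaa
Cxcl10: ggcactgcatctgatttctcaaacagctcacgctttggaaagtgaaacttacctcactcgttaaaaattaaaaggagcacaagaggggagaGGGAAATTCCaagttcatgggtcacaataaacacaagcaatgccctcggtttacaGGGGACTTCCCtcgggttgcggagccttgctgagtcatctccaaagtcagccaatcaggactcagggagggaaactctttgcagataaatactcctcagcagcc
Isg15: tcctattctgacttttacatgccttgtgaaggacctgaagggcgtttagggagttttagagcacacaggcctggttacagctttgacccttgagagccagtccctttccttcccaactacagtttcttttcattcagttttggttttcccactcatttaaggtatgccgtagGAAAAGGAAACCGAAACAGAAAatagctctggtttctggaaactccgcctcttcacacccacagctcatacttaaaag
Ifit3: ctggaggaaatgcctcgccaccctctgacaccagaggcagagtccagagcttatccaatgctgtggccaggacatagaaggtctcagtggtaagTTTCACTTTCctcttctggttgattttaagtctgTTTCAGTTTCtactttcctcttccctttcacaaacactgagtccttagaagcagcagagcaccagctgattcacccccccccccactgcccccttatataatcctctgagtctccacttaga

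The Cxcl2 stretch held 2 overlapping kappaB matches, whose first bases stood 97 and 96 bases before the start. That of Cxcl10 held 3, at 159, 104 and 103 bases before the start, and the last pair overlapped. Isg15 held 3 overlapping matches to the interferon core, at 78, 72 and 66 bases before the start and all on the opposite strand, and Ifit3 held 2, at 156 and 122 bases. A kappaB match was found for 7 of the 21 inflammatory cytokine and chemokine genes that have a promoter in the table (33.3%: Il6, Nlrp3, Ccl9, Cxcl1, Cxcl2, Cxcl3 and Cxcl10), for 4 of 6 genes of the NF-kB feedback list (66.7%), for 3 of 11 interferon-responsive genes (27.3%), for 1 of 4 MHC class II genes (25%) and for 2225 of all 27025 genes (8.23%). The interferon core was found for 6 of 11 interferon-responsive genes (54.5%: Isg15, Ifit1, Ifit3, Rsad2, Bst2 and Gbp2) and for 936 of all genes (3.46%). It was also found for 2 of the 21 cytokine and chemokine genes (9.52%: Cxcl10 and Cxcl14). Only the motif named for each stretch is in capitals, so the interferon core of Cxcl10 stands in lower case. The AP-1 motif TGANTCA was found for 5 of the 21 cytokine and chemokine genes (23.8%), for 4 of 11 interferon-responsive genes (36.4%), for 2 of 6 NF-kB feedback genes (33.3%), for 2 of 4 MHC class II genes (50%) and for 2113 of all genes (7.82%). No kappaB match was found in the windows of Tnf and Ccl3 and no interferon core in that of Irf7, which says only that these letters are not in those windows. A gene was counted when any of its starts held a match, and a match is a description of the letters.

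The levels of the genes that chose the cells are given as a description. Levels are UMIs summed over the cells of a library per 1000000 of their UMIs (CPM). Trem2 stood at 1058 CPM in Primary and 980 CPM in Recurrent cells, and at 457 CPM in Dormant and 657 CPM in Long-term dormant cells. C1qa stood at 6349, 5537, 2878 and 1446 CPM in the same order. A Primary cell held a median of 7 Trem2 UMIs (quartiles 4 and 10, highest 36), and a Recurrent cell a median of 6 (quartiles 3 and 9, highest 28). The summed C1q count per cell had a median of 113 in Primary and 99 in Recurrent. Most cells therefore lay far inside the rule in these 2 libraries: 31 Primary and 41 Recurrent cells held a single Trem2 UMI, and 2 and 3 cells had a C1q sum of 5 to 9. Just outside it stood 36 Primary and 24 Recurrent cells with C1q, Mmp12 and Mrc1 by the rule and 0 Trem2 UMIs. A further 24 and 21 cells met the rule but for a C1q sum of 1 to 4. Cells with exactly 1 UMI of Mmp12 numbered 86 in Primary and 43 in Recurrent, and 182 and 64 held at least 2.

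The label was checked against other markers. Il1a, the interleukin-1 alpha gene, was at 565 CPM (544 to 587) in Primary and 500 CPM (482 to 519) in Recurrent cells. It rested on 8 UMIs in Dormant and 1 UMI in Long-term dormant cells. Ccl12, a monocyte-attracting chemokine gene, was at 225 CPM (211 to 239) in Primary and 394 CPM (378 to 411) in Recurrent cells, and it rested on 15 UMIs in Dormant and 1 UMI in Long-term dormant cells. Both markers were thus well measured in Primary and Recurrent cells only. In T cells of the Primary and Recurrent libraries, Il1a was at 4.35 and 3.83 CPM and Ccl12 at 3.26 and 0.956 CPM. Neither marker was highest in these macrophages among the macrophage sets: Il1a was at 830 and 517 CPM in Mmp12-positive and 389 and 253 CPM in Mrc1-positive cells, and Ccl12 at 86.5 and 245 CPM in Mmp12-positive and 280 and 404 CPM in Mrc1-positive cells. General macrophage genes were present in every library: Csf1r, the receptor for macrophage colony-stimulating factor, stood at 452, 338, 383 and 506 CPM in Primary, Dormant, Long-term dormant and Recurrent cells. Adgre1, which encodes F4/80, stood at 174, 134, 164 and 133 CPM, and Cd68 at 660, 415, 336 and 579 CPM. As a description of cells chosen by their values, genes with the largest excess over all other filtered cells in both Primary and Recurrent included Cyp4f18, Apoc4, Tmem119, Tlr2, Apoe, Ppfia4, Trem2, Cd74 and C1qb. Tmem119, known chiefly as a microglial gene, was at 557 and 415 CPM in these macrophages and at 100 and 33.6 CPM in the other cells of Primary and Recurrent. Tlr2, a receptor for bacterial lipoproteins, was at 277 and 486 CPM against 52.6 and 44.5 CPM. These other cells include all cell types, so the excess does not set these macrophages apart from the other macrophage sets. Trem2 and C1qb also belong to the rule. Apoe was at 49383 and 45713 CPM here, at 39300 and 44166 CPM in Mmp12-positive and at 36730 and 44620 CPM in Mrc1-positive cells.

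The Long-term dormant cells went partly against the name. Their summed level of 6 fibroblast genes was 6417 CPM, and 27 of the 30 cells held a fibroblast UMI. Of their 718 collagen UMIs (Col1a1, Col1a2 and Col3a1), 674 (93.9%) sat in 3 cells. Their median C1q sum was 9 (quartiles 6 and 14), close to the minimum of the rule, with 15 cells at a sum of 5 to 9 and 12 cells with a single Trem2 UMI. When cells with 2 or more UMIs of other cell types' markers were left out, 8 of the 30 Long-term dormant and 9 of the 20 Dormant cells were left. The Dormant and Long-term dormant cells, under the 50 set as a minimum for gene comparisons, are therefore described by counts and marker levels only.

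The Primary and Recurrent cells were of similar depth, with 4694780 and 5587660 UMIs in all, a median of 7078 and 6883 UMIs per cell and a median of 1809.5 and 1859 genes. Markers of other cell types were low but not equal in the 2 libraries. The fibroblast genes summed to 1.28 CPM in Primary and 144 CPM in Recurrent cells, with a UMI in 6 (0.962%) and 63 (7.96%) cells. Col1a2 and Lum were at 0 in Primary. Of 673 collagen UMIs in Recurrent cells, 627 (93.2%) sat in 4 cells. Epithelial genes summed to 89.9 and 126 CPM, with a UMI in 248 (39.7%) and 445 (56.3%) cells. The T cell genes summed to 8.52 and 9.13 CPM, the NK cell genes to 3.83 and 4.47, the B and plasma cell genes to 12.8 and 7.16, the neutrophil genes to 8.95 and 15.7, the dendritic cell genes to 6.82 and 7.52 and the endothelial genes to 5.75 and 5.73 CPM. Ncr1, Prf1, Mzb1, Ly6g, Cxcr2, Clec9a and Calcr were at 0 in both libraries. The osteoclast genes summed to 635 and 675 CPM, nearly all of it Acp5, which macrophages also express. Over the 4 libraries 194 cell barcodes occurred more than once, 36 of them belonged to one of these macrophages in at least 1 library and 1 in more than 1.

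The macrophages made up 14.4% of the filtered cells in Primary (624 of 4328, 13.4 to 15.5%) and 16.9% in Recurrent (791 of 4685, 15.8 to 18.0%). They made up 0.611% in Dormant (20 of 3276, 0.373 to 0.941%) and 0.5% in Long-term dormant (30 of 6004, 0.337 to 0.713%). The 2 residual-tissue libraries thus held few of these cells. A further 4 Dormant and 42 Long-term dormant cells met the rule but for a C1q sum of 1 to 4. Cells that reached the C1q minimum, a set that need not hold every macrophage, were also fewer there. They numbered 106 in Dormant and 147 in Long-term dormant, against 1275 in Primary and 1267 in Recurrent. Of those C1q-high cells, the Trem2-positive, Mmp12-negative cells were 48.9% in Primary (46.2 to 51.7%) and 62.4% in Recurrent (59.7 to 65.1%), and 18.9% (11.9 to 27.6%) and 20.4% (14.2 to 27.8%) in Dormant and Long-term dormant.

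**Figure D1:**
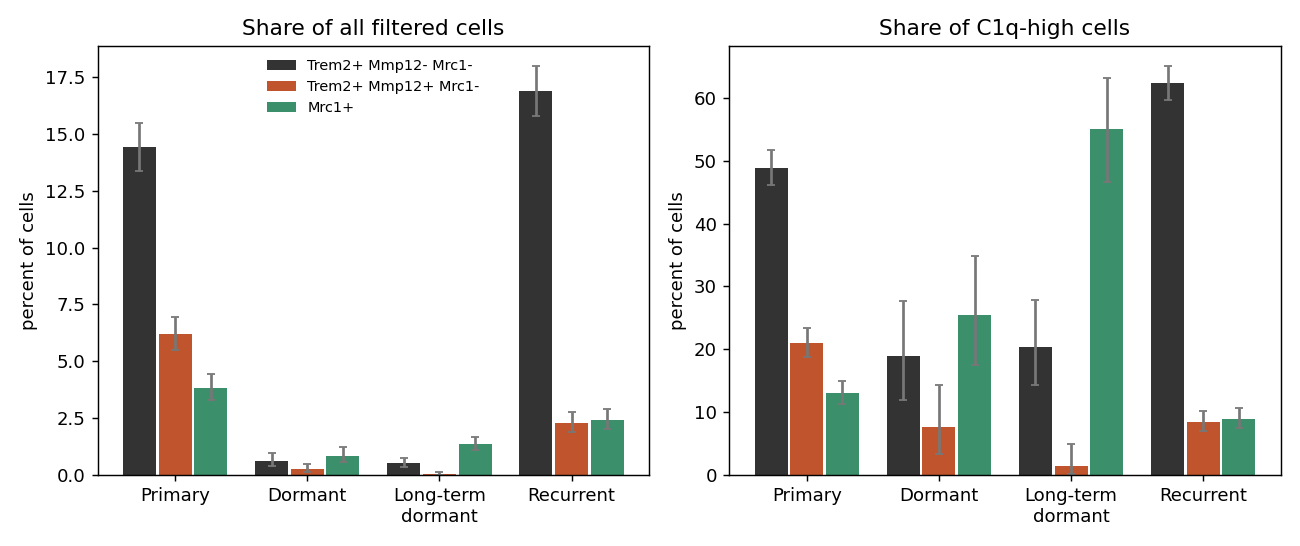
Share of Trem2-positive, Mmp12-negative macrophages and of Mmp12-positive and Mrc1-positive macrophages by library, as a percentage of all filtered cells and of C1q-high cells. Bars are shares of cells in 1 library and lines exact 95% intervals for counting error. The Trem2-positive, Mmp12-negative cells were 48.9% of C1q-high cells in Primary and 62.4% in Recurrent, and under 1% of all filtered cells in Dormant and Long-term dormant.

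Mmp12-positive cells that otherwise met the rule were fewer in Recurrent, with 268 cells in Primary (6.19% of filtered cells, 5.49 to 6.95%) and 107 in Recurrent (2.28%, 1.88 to 2.75%). Mrc1-positive cells numbered 166 (3.84%) and 113 (2.41%). In both residual-tissue libraries the Mrc1-positive cells were the most numerous of the 3 sets, with overlapping intervals in Dormant beside the 20 Mmp12-negative cells: they were 27 of 106 C1q-high cells in Dormant (25.5%, 17.5 to 34.9%), with 8 Mmp12-positive, and 81 of 147 in Long-term dormant (55.1%, 46.7 to 63.3%), with 2 Mmp12-positive. The rule reads zeros, and the median filtered cell held 5709.5 UMIs in Primary and 7550 in Recurrent, against 2738.5 and 3214 in Dormant and Long-term dormant. When cells of at least 2000 UMIs were thinned to 2000 UMIs before the rule was applied, the share was 18.8% in Primary and 18.1% in Recurrent. When cells with 2 or more UMIs of other cell types' markers were left out, it was 11.5% and 11.2%. The higher share in Recurrent was thus not seen under either of these settings. The share of C1q-high cells left out for a UMI of Cd3e or Epcam also differed, with 164 cells in Primary and 226 in Recurrent.

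Between Recurrent and Primary cells, 9376 genes had at least 20 UMIs over both libraries. A gene was called past 2-fold where its log2 ratio of Recurrent over Primary was at least 1 in size and its interval left out 0. By this rule 324 genes were higher in Recurrent (3.46% of the genes measured) and 206 lower (2.2%), and the median log2 ratio of all genes was 0.02. With a minimum of 100 UMIs, which leaves fewer genes, the counts were 135 and 40. Of the lists of macrophage functions, the cell cycle list (8 lower) and the interferon-responsive list (5 higher) held the most such genes, while macrophage identity, lipid and lysosome genes stayed within 2-fold but for Mertk and Spp1. The gene lists were drawn up with earlier results of these data known, so their counts only describe.

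Inflammatory cytokine genes differed in both directions. Tnf, the gene of tumour necrosis factor, at chr17:35199381-35202007 on the minus strand, was at 203 CPM (191 to 217) in Primary and 849 CPM (825 to 874) in Recurrent cells, 4.17 times higher (log2 ratio 2.06, 1.96 to 2.16). After thinning to 2000 UMIs per cell, 25.7% of Primary and 60.6% of Recurrent cells held a Tnf UMI. The same shares in T cells were 3.47% and 3.61%. The higher level was spread over many cells, since no single cell held more than 1.99% of the Tnf UMIs. Tnf was at 303 and 913 CPM in Mmp12-positive cells (1.59, 1.44 to 1.74). Il1rn, which encodes the antagonist of the interleukin-1 receptor, was at 212 and 596 CPM (1.49, 1.39 to 1.59), with a UMI in 28.6% and 53.3% of thinned cells. Il10, an anti-inflammatory cytokine gene, was at 27.9 and 59.8 CPM (1.10, 0.80 to 1.40). The interleukin-1 genes themselves were not higher: Il1a, at chr2:129299610-129309972 on the minus strand, had a log2 ratio of -0.18 (-0.25 to -0.10), and Il1b was at 1943 and 1528 CPM (-0.35, -0.39 to -0.30). In Mmp12-positive cells the ratios of Il1a and Il1b were -0.68 and -0.78. Nlrp3, the inflammasome sensor gene, was at 166 and 296 CPM (0.84, 0.71 to 0.96), within 2-fold, as was the prostaglandin synthase gene Ptgs2 at 75.4 and 108 CPM (0.52). Of the 10 genes of this list, 3 were past 2-fold higher and none lower, and its median log2 ratio was 0.61. With at least 2 Trem2 UMIs required the median was 0.34.

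Chemokine genes were higher in Recurrent cells or within 2-fold. Cxcl2, a neutrophil-attracting chemokine gene whose promoter is printed above, at chr5:90903871-90905938 on the plus strand, was at 4555 CPM (4494 to 4617) in Primary and 9625 CPM (9544 to 9706) in Recurrent cells (1.08, 1.06 to 1.10). It was read in 79.0% and 91.8% of thinned cells and in 12.7% and 22.7% of thinned T cells, where its level was 124 and 359 CPM. Ccl4 and Ccl3, macrophage inflammatory protein genes, were at 1038 and 2608 CPM (1.33, 1.28 to 1.38) and at 385 and 950 CPM (1.30, 1.23 to 1.38). A UMI of Ccl4 was read in 45.1% of Primary and 68.2% of Recurrent cells after thinning, against 9.83% and 5.15% of T cells. The T cell level of Ccl4 went the other way, from 209 CPM in Primary to 46.9 CPM in Recurrent. Ccl2, which encodes the main chemokine for monocytes, was at 143 and 310 CPM (1.11, 0.98 to 1.24), and Cxcl10, an interferon-responsive chemokine gene that draws T cells, at 98.4 and 213 CPM (1.12, 0.96 to 1.27). Ccl12, one of the marker genes given for these cells, at chr11:82101845-82103400 on the plus strand, had a log2 ratio of 0.81 (0.71 to 0.92), as did Cxcl14 at 233 and 409 CPM (0.81, 0.70 to 0.91). Little difference was seen for Ccl9 at 280 and 291 CPM (0.05, -0.05 to 0.16), Ccl8 at 75.8 and 72.8 CPM and Cxcl9 at 95.6 and 93.8 CPM. Cxcl16 was at 798 and 655 CPM (-0.29). Of 10 CC chemokine genes measured, 3 were past 2-fold higher and 7 had an interval above 0, with a median of 0.66. Of 7 CXC chemokine genes, 2 were past 2-fold higher and 4 had an interval above 0, with a median of 0.45. No gene of either list was past 2-fold lower. The other macrophage sets were higher in Recurrent too. The CC list had a median of 0.68 in Mmp12-positive and 0.96 in Mrc1-positive cells, and the CXC list 0.41 and 0.71. In T cells the medians were -0.18 over 5 CC genes and 2.20 over 4 CXC genes. Tnf, Il1rn, Ccl3, Ccl4 and Cxcl2 were over 5 times higher in 36 Primary cells with neutrophil markers, whose median depth was 713 UMIs, so a part of free RNA in these levels was not tested. The Recurrent cells chosen by the same markers numbered 70, with a median of 8897 UMIs. That depth is unlike the Primary one, and whether these cells are neutrophils was not tested.

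**Figure D2:**
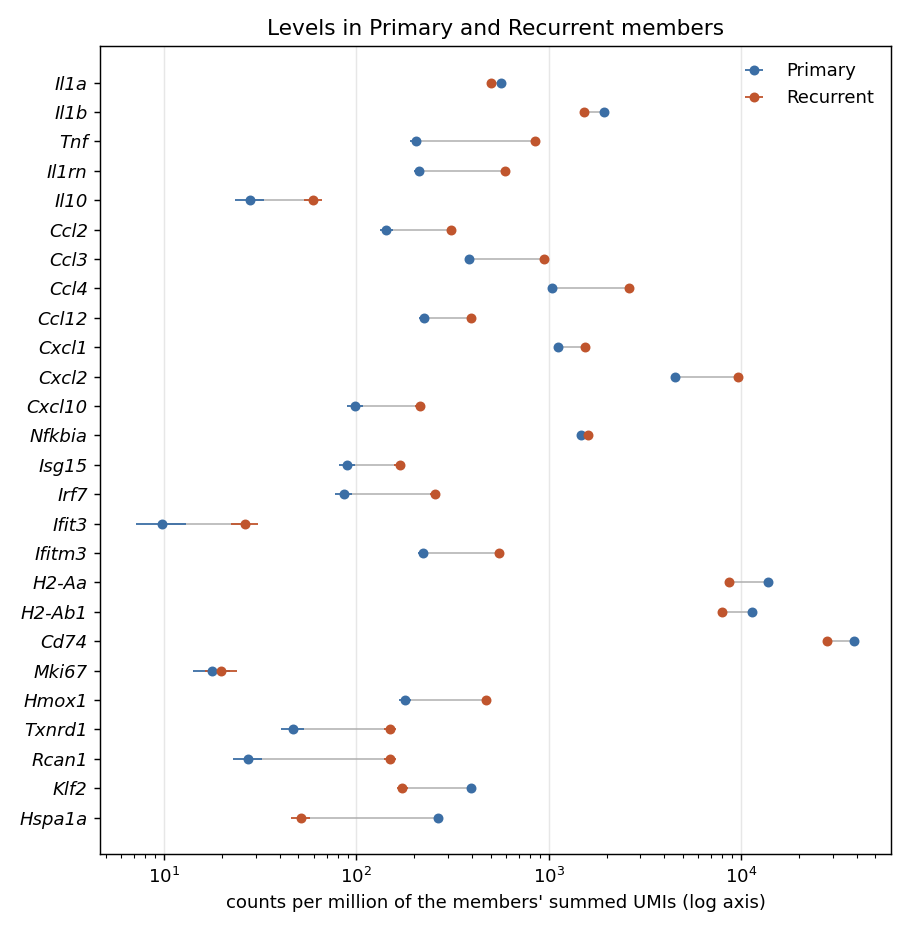
Levels of 26 genes in Primary and Recurrent Trem2-positive, Mmp12-negative macrophages, in UMIs per 1000000 UMIs on a log axis; points are the summed cells of 1 library and lines exact Poisson 95% intervals. Tnf stood at 203 and 849, Cxcl2 at 4555 and 9625, and H2-Aa at 13833 and 8655.

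The feedback genes of NF-kB, which this factor switches on and which include its own inhibitors and subunits, were all slightly higher in Recurrent cells. The intervals of all 9 lay above 0, none was past 2-fold, and their median was 0.52. The inhibitor gene Nfkbia was at 1475 and 1597 CPM (0.11, 0.07 to 0.16) and Nfkbiz at 459 and 616 CPM (0.43, 0.35 to 0.50). Nfkb1, the p50 subunit gene, was at 67.7 and 116 CPM (0.78, 0.58 to 0.98), and Tnfaip3, which encodes the inhibitor A20, at 243 and 281 CPM (0.21). Icam1, an adhesion gene, was at 127 and 182 CPM (0.51) and the mitochondrial superoxide dismutase gene Sod2 at 148 and 213 CPM (0.52). The same list had a median of 0.60 in T cells of the same libraries and 0.48 in Mmp12-positive cells, so the difference was of like size in other cells.

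Interferon-responsive genes were higher in Recurrent cells as a group. Of 14 measured, 5 were past 2-fold higher and none lower, 12 had an interval above 0, and the median was 0.89. Irf7, the interferon regulatory factor gene, was at 85.8 CPM (77.7 to 94.6) in Primary and 256 CPM (242 to 269) in Recurrent cells (1.57, 1.41 to 1.74). It was read in 10.7% and 31.9% of thinned cells and in 6.36% and 9.79% of thinned T cells. Ifit3, an antiviral effector gene, was at 9.80 and 26.3 CPM (1.41, 0.94 to 1.94), and Ifitm3, which restricts viral entry, at 223 and 553 CPM (1.31, 1.21 to 1.41). The other genes past 2-fold were Cmpk2 (6.60 and 14.5 CPM) and Usp18 (12.6 and 25.4 CPM). Isg15, a ubiquitin-like modifier gene, was at 89.2 and 168 CPM (0.91, 0.74 to 1.08), and Bst2, which encodes tetherin, at 288 and 479 CPM (0.73, 0.64 to 0.83). Ifit1 at 7.46 and 9.49 CPM and Gbp2 at 53.5 and 48.0 CPM had intervals that spanned 0. The list was higher in the other cells of the Recurrent library too, with a median of 1.31 in Mmp12-positive cells, 1.38 in Mrc1-positive cells and 1.06 over 9 genes in T cells. For Irf7 the ratio was 1.75 in Mmp12-positive cells, 0.77 in T cells and 2.11 in epithelial cells.

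MHC class II genes, which present antigen to CD4 T cells, were lower in Recurrent cells. H2-Aa, at chr17:34282744-34287823 on the minus strand, was at 13833 CPM (13727 to 13940) in Primary and 8655 CPM (8578 to 8733) in Recurrent cells (-0.68, -0.69 to -0.66). H2-Ab1, the partner chain, was at 11377 and 8012 CPM (-0.51), and Cd74, the invariant chain, at 38791 and 28070 CPM (-0.47). H2-DMa, a peptide-loading gene, was at 703 and 474 CPM (-0.57) and H2-Eb1 at 169 and 145 CPM (-0.22). All 5 had intervals below 0 and were within 2-fold. H2-DMb1 at 684 and 658 CPM and Ciita, the master regulator gene, at 13.2 and 9.31 CPM had intervals that spanned 0. The median of the 7 genes was -0.50, beside -0.36 in Mmp12-positive and -0.17 in Mrc1-positive cells and -0.34 over 5 genes in T cells. H2-Aa was at 129 and 90.9 CPM in T cells and at 432 and 175 CPM in epithelial cells of Primary and Recurrent, so it was lower there too. MHC class I genes differed little, with B2m at 5587 and 5206 CPM (-0.10), H2-K1 at 1801 and 1788 CPM and a median of -0.03 over 9 genes.

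Cell cycle genes were lower in Recurrent cells. Of 19 measured, 8 were past 2-fold lower, none higher, 13 had an interval below 0 and the median was -0.73. Birc5, the survivin gene, was at 54.1 CPM (47.7 to 61.2) in Primary and 26.5 CPM (22.4 to 31.1) in Recurrent cells (-1.03, -1.33 to -0.73). Ube2c, a mitotic ubiquitin-conjugating enzyme gene, was at 23.4 and 8.59 CPM (-1.44), and the mitotic kinase gene Cdk1 at 20.7 and 9.66 CPM (-1.09). Plk1, Ccna2, Aurkb, Ccnb1 and Cenpf, all genes of mitosis or of entry into it, were lower by 2.07, 1.61, 1.57, 1.26 and 1.04 on the log2 scale. Under at least 1 alternative the ratios of Cdk1 (-0.71), Birc5 (-0.84), Aurkb (-0.86) and Cenpf (-0.98) were within 2-fold. These values came from the rule on thinned counts for the first 3 and from equal weight per cell for Cenpf. Of the DNA replication genes, Pcna was at 94.6 and 130 CPM (0.46, 0.29 to 0.64), and Mcm3, Mcm5 and Mcm6 had intervals that spanned 0, as did Mki67 at 17.7 and 19.9 CPM (0.17, -0.26 to 0.60). After thinning, 70 of 618 Primary cells (11.3%, 8.94 to 14.1%) and 50 of 784 Recurrent cells (6.38%, 4.77 to 8.32%) held at least 5 UMIs over the list. The corresponding shares of Mmp12-positive cells were 7.84% (21 of 268, 4.92 to 11.7%) and 5.66% (6 of 106, 2.11 to 11.9%). The list was also lower in the other macrophage sets of Recurrent, with a median of -0.46 over 18 genes in Mmp12-positive cells and -0.70 over 17 in Mrc1-positive cells. T cells of the same libraries went the other way, with a median of 0.80 over 17 genes.

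Genes that respond to handling and stress differed unevenly. Hspa1a, a heat shock protein gene, at chr17:34969190-34972156 on the minus strand, was at 267 CPM (252 to 282) in Primary and 51.4 CPM (45.6 to 57.7) in Recurrent cells (-2.38, -2.57 to -2.19), and 10.3% of its Primary UMIs came from 1 cell. Hspa1b at 22.2 and 6.26 CPM and Hspb1 at 32.0 and 9.13 CPM were also past 2-fold lower. Hspa1a was lower in T cells by 3.04, in epithelial cells by 2.68 and in Mmp12-positive cells by 0.86 on the log2 scale, so it was lower in all 4 of these cell sets. Of the immediate early genes, Fos at 1259 and 938 CPM (-0.42) and Jun at 438 and 234 CPM (-0.91) were lower, while Junb at 1346 and 2015 CPM (0.58) and Egr1 at 153 and 275 CPM (0.84) were higher. Ier3, an NF-kB and stress-responsive survival gene, was at 105 and 270 CPM (1.37, 1.22 to 1.52) and had a ratio of 2.15 in T cells. Of the 14 genes, 1 was past 2-fold higher and 3 lower, with a median of -0.31, beside 0.06 in T cells. The part of handling in the inflammatory genes above was not tested.

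Among well-measured genes (those that averaged 50 CPM or more with an interval wholly outside 2-fold), and leaving out candidates for free RNA, 11 genes stood highest and 4 lowest. Rcan1, an inhibitor of calcineurin, at chr16:92391953-92470867 on the minus strand, was at 27.3 CPM (22.7 to 32.4) in Primary and 149 CPM (139 to 160) in Recurrent cells, 5.46 times higher (2.45, 2.18 to 2.73). It was read in 4.85% and 23.3% of thinned cells and in 2.06% of thinned Recurrent T cells. Its ratio was 1.52 in Mmp12-positive and 2.10 in Mrc1-positive cells, and 0.51 (-1.05 to 2.30) in T cells. Txnrd1, which encodes a thioredoxin reductase, was at 46.6 and 150 CPM (1.68, 1.47 to 1.90), Hmox1, which encodes a haem oxygenase, at 179 and 474 CPM (1.40, 1.29 to 1.52) and the small Maf factor gene Maff at 110 and 297 CPM (1.43, 1.28 to 1.57). Hmox1 was uneven between cells. After thinning its median was 0 and its 90th percentile 1 UMI in both libraries, while single cells reached 29 and 59 UMIs. Mdm2, which encodes the ligase that degrades p53, was at 40.5 and 123 CPM (1.60, 1.37 to 1.84), with a ratio of 0.07 in T cells and 2.10 in Mmp12-positive cells. Nr4a3, an orphan nuclear receptor gene, was at 28.1 and 86.3 CPM (1.61), with 2.45 in T cells. Kdm6b, a demethylase of histone H3 induced by NF-kB, was at 147 and 369 CPM (1.32). Irf7, described above, Sertad1 at 41.3 and 115 CPM, Fam110a at 34.7 and 94.7 CPM and Tnpo3 at 41.3 and 104 CPM complete the higher genes. The 4 lowest were Hspa1a, Hist1h1c, a linker histone gene, at 151 and 33.8 CPM (-2.16, -2.40 to -1.93), Tsc22d3, the glucocorticoid-induced leucine zipper gene, at 188 and 71.0 CPM (-1.41, -1.58 to -1.23) and Klf2, a quiescence factor gene, at 393 and 173 CPM (-1.18, -1.30 to -1.07). In T cells Hist1h1c was lower by 2.90, Tsc22d3 by 1.01 and Klf2 by 0.47 on the log2 scale.

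**Figure D3:**
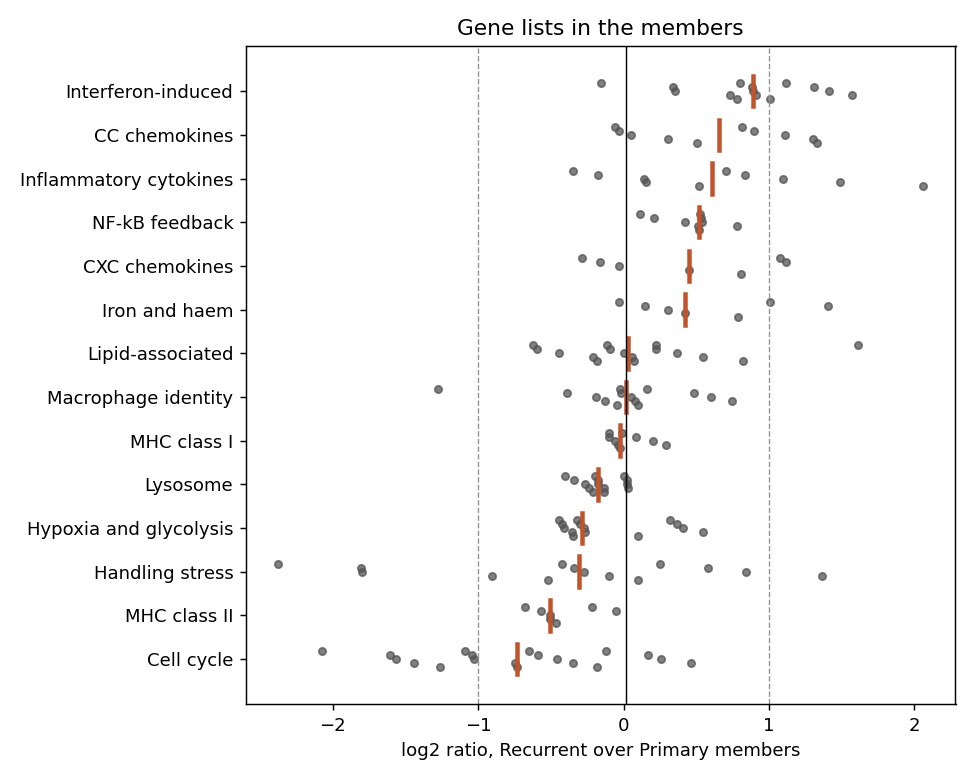
Log2 ratio of Recurrent over Primary for each measured gene of 14 lists in Trem2-positive, Mmp12-negative macrophages; each point is a gene, the red bar the median of the list, the solid line the median of all genes (0.02) and the dashed lines 2-fold. Interferon-responsive genes had a median of 0.89, CC chemokine genes 0.66, MHC class II genes -0.50 and cell cycle genes -0.73.

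The adaptor of the receptor and most identity genes were within 2-fold. Tyrobp, the adaptor of TREM2, was at 3672 CPM in Primary and 3627 CPM in Recurrent cells (-0.02, -0.05 to 0.01), and the downstream kinase gene Syk at 46.9 and 41.9 CPM (-0.16, -0.43 to 0.11). Of 12 genes of TREM2 signalling and dead cell uptake, 1 was past 2-fold higher, Pros1 at 9.59 and 20.2 CPM, and 1 lower, the uptake receptor gene Mertk at 6.60 and 2.68 CPM (-1.27, -2.29 to -0.37). The intervals of 7 of the 12 lay above 0 and that of 1 below, with a median of 0.30. Axl, a receptor of the same family, was at 291 and 308 CPM. The 14 macrophage identity genes had a median of 0.02, with Csf1r at 0.16, Adgre1 at -0.39 and Fcgr1, the high-affinity IgG receptor gene, at 140 and 235 CPM (0.75). The microglia-associated genes Tmem119 at 557 and 415 CPM (-0.42) and Olfml3 at 91.0 and 100 CPM (0.14) were read in both libraries, while Sall1 was at 0 in both.

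Lipid and lysosome genes were within 2-fold except for Spp1. The 16 lipid-associated genes had a median of 0.03. Apoe, the apolipoprotein gene with the most UMIs in these cells, was at 49383 and 45713 CPM (-0.11). Lgals3, the galectin-3 gene, at 1687 and 1116 CPM (-0.60) and Fabp5, a fatty acid-binding protein gene, at 181 and 133 CPM (-0.45) were lower, and the fatty acid receptor gene Cd36 at 42.2 and 74.6 CPM (0.82) and the lipoprotein lipase gene Lpl at 131 and 192 CPM (0.55) were higher. Spp1, the osteopontin gene, was at 808 and 2471 CPM (1.61, 1.56 to 1.66). It stood at 3708 and 10276 CPM in epithelial cells and at 918 and 2909 CPM in T cells, so its level in these macrophages was no higher than in T cells, and a part of free RNA in it was not tested. Of 14 lysosome genes, 10 had an interval below 0, none was past 2-fold and the median was -0.17. Ctsd was at 2405 and 2114 CPM (-0.19) and Psap at 3702 and 3085 CPM (-0.26). Of 14 hypoxia and glycolysis genes, 9 had an interval below 0 and none was past 2-fold, with a median of -0.29, and Gapdh at 2820 and 2206 CPM (-0.35) and Pgk1 at 388 and 292 CPM (-0.41) were examples. Vegfa, the vascular growth factor gene, was at 76.7 and 44.2 CPM (-0.79, -1.03 to -0.56).

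Fn1, the fibronectin gene of matrix and monocyte-derived cells, at chr1:71585520-71653200 on the minus strand, was at 84.6 CPM (76.4 to 93.3) in Primary and 437 CPM (420 to 454) in Recurrent cells (2.37, 2.21 to 2.53). It was read in 10.8% and 38.3% of thinned cells and in 0.578% and 2.58% of thinned T cells. Fibroblasts held 1123 and 3922 CPM, from only 12 Primary cells with 56087 UMIs in all and 45 Recurrent cells. The fibroblast genes differed between the libraries as given above. With cells carrying other cell types' markers left out, the ratio of Fn1 was 2.33. Of the monocyte list, Fn1 alone of 7 genes was past 2-fold. Its median was 0.52, or 0.24 over 6 genes with such cells left out. Growth factor genes past 2-fold were Areg at 9.16 and 32.8 CPM (1.83), with a ratio of 2.10 in T cells, and Igf1 at 4.05 and 11.6 CPM (1.5), which ranged down to 0.39 over the alternatives. Cd40, a costimulatory receptor gene, was at 16.4 and 38.1 CPM (1.21, 0.83 to 1.61), and Cd80, a costimulatory ligand gene, at 5.96 and 2.68 CPM (-1.13, -2.16 to -0.20). Plau, the urokinase gene, was at 17.0 and 38.8 CPM (1.18, 0.81 to 1.58). Of 10 resident macrophage genes, 2 were past 2-fold higher, Retnla at 0.639 and 8.77 CPM (3.57, 2.15 to 6.11), which ranged from 2.83 to 5.96 over the alternatives and rested on 3 Primary UMIs, and F13a1 at 6.39 and 13.2 CPM (1.04, 0.42 to 1.71), which ranged down to 0.92. Retnla was read in 1.15% of thinned Recurrent cells and in 2.58% of thinned Recurrent T cells, and a part of free RNA in it was not tested. The folate receptor gene Folr2 was at 30.5 and 56.9 CPM (0.90), and the platelet factor 4 gene Pf4 at 105 and 60.0 CPM (-0.81, -1.02 to -0.61). The median of the list was 0.19, or 0.49 with the rule on thinned counts and 0.56 with cells carrying other markers left out. Cd163 was at 0 in both libraries.

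Of the genes of the Notch pathway, which the antibody arm of the study addressed, the 4 named here were at low levels in these cells. Jag1, a Notch ligand gene, was at 23.0 CPM (18.9 to 27.8) in Primary and 24.7 CPM (20.7 to 29.2) in Recurrent cells (0.10, -0.27 to 0.48). Jag1 was read in 5.34% and 4.34% of thinned cells and in 0.578% and 0.515% of thinned T cells. In all other filtered cells it was at 20.4 CPM (18.5 to 22.3) in Primary and 5.55 CPM (4.80 to 6.38) in Recurrent. Its level in these macrophages was thus above that of the other cells in Recurrent, with overlapping intervals in Primary. Jag1 was at 13.9 and 2.81 CPM in epithelial, 36.306 and 49.955 CPM in Mmp12-positive and 21.9 and 9.30 CPM in Mrc1-positive cells. The receptor genes Notch1 at 7.67 and 9.49 CPM and Notch2 at 30.9 and 28.8 CPM had intervals that spanned 0. Hes1, a Notch target gene, was at 26.8 and 13.6 CPM (-0.98, -1.41 to -0.56), and its share of thinned cells was 3.07% and 2.68%. Of 8 Notch genes measured none was past 2-fold. All 4 were over 5 times higher in another cell set, so a part of free RNA was not tested.

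The spread between cells of 1 library was compared across genes. After thinning to 2000 UMIs, which left out 6 Primary and 7 Recurrent cells, genes were ranked by the smaller of their 2 ratios of variance to mean. The 7 highest were Actb (34.4 in Primary and 32.5 in Recurrent), Cd74 (27.3 and 29.9), Apoe (32.9 and 24.2), the lysozyme gene Lyz2 (16.5 and 15.2), H2-Aa (11.9 and 13.3), H2-Ab1 (11.7 and 13.4) and Cxcl2 (11.4 in both). A ratio of 1 would be counting error alone. Where cells differ, the ratio also rises with the mean of a gene, so the order partly follows abundance. The mean in Primary was 99.2 UMIs for Apoe and 0.138 for Ccl8, whose ratio was 7.38. Ftl1 (11.0 and 12.6), Fth1 (11.7 and 10.9), Ccl4 (8.89 and 11.4), Hmox1 (8.55 and 15.3), Mt1, Ccl8, Rsad2 (13.6 and 7.13) and Cxcl1 complete the 15 highest. Rsad2, an interferon-responsive gene, and Ccl8 were at 0 in at least 90% of the cells of both libraries and reached 24 and 22 UMIs in single Primary cells, so their spread came from few cells.

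**Figure D4:**
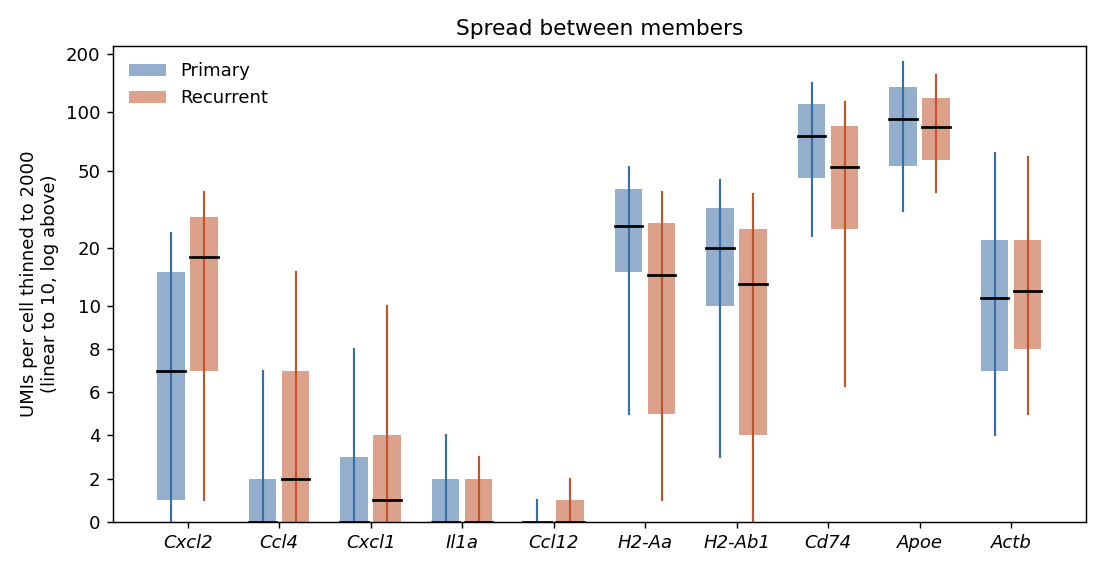
UMIs per cell of 10 genes in Primary and Recurrent Trem2-positive, Mmp12-negative macrophages thinned to 2000 UMIs; boxes span the quartiles, lines the 10th to the 90th percentile and black bars mark the medians, on an axis that is linear to 10 and logarithmic above. The median of Cxcl2 was 7 in Primary and 18 in Recurrent cells and that of H2-Aa 26 and 14.5.

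The per-cell values show how the 2 libraries overlap. A Primary cell held a median of 7 Cxcl2 UMIs (quartiles 1 and 15, 90th percentile 24), and a Recurrent cell a median of 18 (quartiles 7 and 29, 90th percentile 39). For Ccl4 the medians were 0 and 2 and the 90th percentiles 7 and 15. The median of H2-Aa was 26 (quartiles 15 and 40) in Primary and 14.5 (quartiles 5 and 27) in Recurrent, so the upper quartile of Recurrent cells was close to the Primary median. For Cd74 the medians were 75.5 and 52, while the 10th percentiles were 23 and 6.3, so the low end differed by more, in proportion, than the middle. Il1a was at 0 in the median cell of both libraries, and 46.3% and 44.1% of thinned cells held a UMI. Across cells, Spearman's rho between H2-Aa and H2-Ab1 was 0.86 over 618 Primary cells and 0.90 over 784 Recurrent cells, and that between Cxcl2 and Cxcl1 was 0.58 and 0.44. H2-Aa and the ferritin gene Ftl1 went in opposite directions, at -0.35 in both. These cells share 1 library each and a fixed depth, so the correlations are a description.

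The Mmp12-positive cells of the same libraries differed from the Mmp12-negative cells in few genes. The contrast is that of the rule, and the values are a description. Past 2-fold in both libraries, 50 of 8262 genes were higher (0.605%) and 17 lower (0.206%) in the Mmp12-positive cells. Higher were the arginase gene Arg1, at 291 CPM in Mmp12-positive against 84.1 CPM in Mmp12-negative Primary cells (log2 ratio 1.79, 1.61 to 1.97) and at 407 against 137 CPM in Recurrent cells (1.57, 1.38 to 1.76), and Hmox1, at 482 against 179 CPM and 1668 against 474 CPM (1.43 and 1.81). Fabp5 (1.33 and 1.64), Anxa2 (1.26 and 1.51), the mitophagy gene Bnip3 (1.23 and 1.61), the sheddase gene Adam8 (1.37 and 1.41), Gclm (1.11 and 1.51) and Plk2 (1.19 and 1.46) followed in Primary and Recurrent. The hypoxia and glycolysis list had a median of 0.78 and 0.89 in the Mmp12-positive cells, beside -0.05 and -0.02 for all genes, with Pgk1 at 1.03 and 1.17, and the median of the lipid-associated genes was 0.56 in both libraries. The CC chemokine list had a median of 0.27 in Primary and 0.23 in Recurrent, higher in the Mmp12-positive cells, and the CXC list a median of 0.37 and -0.04. Among the genes lowest in the Mmp12-positive cells were 3 chemokine genes. Cxcl9 was at 95.6 CPM in Mmp12-negative and 15.7 CPM in Mmp12-positive Primary cells (-2.59, -3.15 to -2.11) and at 93.8 and 42.6 CPM in Recurrent cells (-1.12, -1.67 to -0.64). Ccl12 was at 225 and 86.5 CPM in Primary (-1.37) and at 394 and 245 CPM in Recurrent cells (-0.68), and Ccl8 had ratios of -1.11 and -0.93. The ratio of Ccl8 in Recurrent was 0.41 when cells with other cell types' markers were left out. Limd2 (-0.94 and -0.67), Ppfia4 (-0.69 and -0.70), Tmem176a (-0.76 and -0.68), Tmem176b (-0.64 and -0.87) and Lpcat2 (-0.66 and -0.65) were also lower in Mmp12-positive cells. Trem2 itself was at a like level in both sets, with ratios of -0.17 and 0.02.

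**Figure D5:**
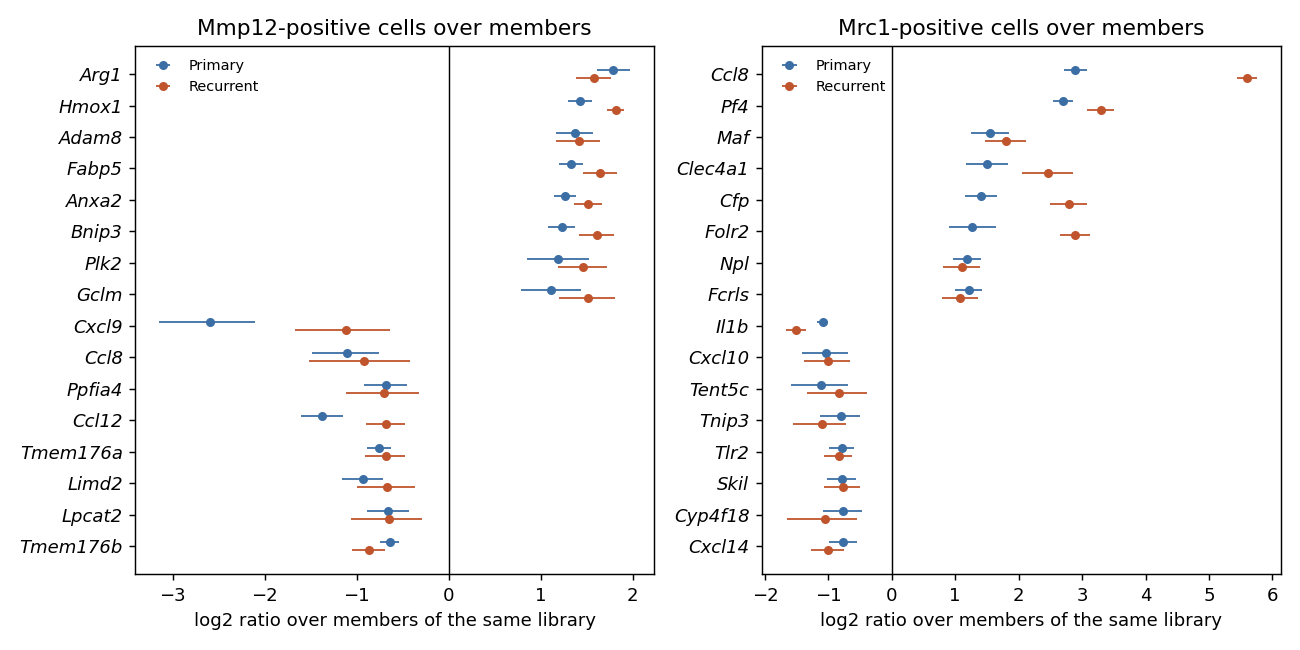
Log2 ratio of Mmp12-positive cells and of Mrc1-positive cells over Trem2-positive, Mmp12-negative macrophages of the same library for 16 genes each, in Primary and Recurrent; lines are 95% intervals for counting error. Arg1 and Hmox1 were above 1 in Mmp12-positive cells of both libraries, and Ccl8 and Pf4 were above 2 in Mrc1-positive cells of both.

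The Mrc1-positive cells differed by genes of resident macrophages. Past 2-fold in both libraries, 68 of 8194 genes were higher (0.83%) and 7 lower (0.0854%) in the Mrc1-positive cells, again as a description of sets cut by measured values. Ccl8 was at 563 CPM in Mrc1-positive against 75.8 CPM in Trem2-positive, Mmp12-negative Primary cells (2.89, 2.71 to 3.08) and at 3535 against 72.8 CPM in Recurrent cells (5.60, 5.45 to 5.76). Pf4 (2.70 and 3.29), the transcription factor gene Maf (1.54 and 1.80), Clec4a1 (1.5 and 2.46), the properdin gene Cfp (1.41 and 2.79), Folr2 (1.27 and 2.89), Fcrls (1.21 and 1.08) and Npl (1.19 and 1.11) were higher as well. The resident list had a median of 2.65 in Primary and 5.01 in Recurrent, beside 0.13 and 0.11 for all genes. The Trem2-positive, Mmp12-negative cells held more Il1b, at 1943 against 913 CPM in Primary (-1.09, -1.17 to -1.01) and 1528 against 535 CPM in Recurrent (-1.51, -1.67 to -1.36). They also held more Cxcl10 (-1.04 and -1.01), Tlr2 (-0.79 and -0.84), Cxcl14 (-0.76 and -1.01), Tnip3 (-0.81 and -1.11), Tent5c (-1.11 and -0.82), Cyp4f18 (-0.77 and -1.05) and Skil (-0.79 and -0.77). Tnf was at 203 against 130 CPM in Primary (-0.65) and 849 against 607 CPM in Recurrent (-0.48), and its ratio of Recurrent over Primary in the Mrc1-positive cells was 2.23.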

How the data were processed

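Single-cell RNA was measured in 4 mouse tumour libraries, 1 per stage. The deposited values are raw UMI counts per gene (22547) and cell, made by the authors with Cell Ranger 3.1.0 on mm10, with FastQC also used, per the submitters' processing notes. Cell filters before deposit are not given in the sources used here. The libraries held 4925 Primary, 3541 Dormant, 6083 Long-term dormant and 5119 Recurrent cells. Every column was matched to a sample by its label.

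The cells, gene lists and comparisons were chosen with earlier results of these data known. UMIs were summed over the cells of a library. Log2 ratios used a prior of 0.5 counts and exact conditional Poisson intervals, levels exact Poisson intervals and shares exact Clopper-Pearson intervals, all at 95%. For counts of 0 the floor was 3 UMIs. Cells are not replicates, so no test or p-value was made. Comparison cells were T cells (Cd3e of at least 1), epithelial cells (Epcam of at least 1), both with a C1q sum of 0, and Mrc1-positive cells with the C1q minimum and any Trem2 or Mmp12. Mrc1-positive cells were left out of the Mmp12-positive set. Fibroblasts held at least 3 UMIs over Col1a1 and Col1a2 and 0 of Epcam, and cells with neutrophil markers at least 10 over S100a8 and S100a9. Both of these sets had a C1q sum of 0. The code was tested on simulated data.

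Named genes were the markers, Mmp12, Mrc1 and 4 Notch genes, the 10 with most UMIs, up to 12 highest and 12 lowest ratios (at least 20 UMIs, a mean of 50 CPM and an interval outside 2-fold), the largest ratios of each list with list genes needed as examples, the 8 highest and 8 lowest against the other 2 macrophage sets, the 15 most variable and the 10 leading genes. Left out of the ranked rules were Xist, antigen receptor genes of B and T cells, haemoglobin, ribosomal, mitochondrial, predicted and Rik genes. Genes over 5 times higher in CPM in the epithelial, T cell, fibroblast or neutrophil cells of either library were also left out of some rules. These were the rules for the highest and lowest ratios between libraries and against the other 2 macrophage sets. The most variable, most abundant and leading genes were not screened in this way. Several list genes beyond the 4 largest ratios were named after their values were seen. A few genes that qualified are left unreported.

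Doublets were kept. Leaving out the highest Scrublet scores (scanpy 1.11.5) at 0.8% per 1000 cells was an alternative, which removed 7 Primary, 1 Dormant, 3 Long-term dormant and 6 Recurrent members. Other alternatives were a stricter cell filter, C1q and Trem2 minimums, the rule on thinned counts, cells with other cell types' markers left out, equal weight per cell, TMM factors from edgeR 4.0.16 (R 4.3.3), scaling to UMIs other than those of haemoglobin, ribosomal and mitochondrial genes, and minimums of 5 and 100 UMIs. Python 3.11.15, numpy 2.4.6, scipy 1.17.1 and matplotlib 3.10.9 were used. Promoters came from the RefSeq table on GRCm38.p6 (32851 promoters of 27025 genes) and were matched by symbol. The table held 21 of 28 cytokine and chemokine genes, 6 of 9 NF-kB feedback genes and 11 of 15 interferon-responsive genes.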

Additional observations from a re-analysis of the deposited data

How the results depend on the processing

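The share of Trem2-positive, Mmp12-negative macrophages among filtered cells moved beyond its interval under 3 settings in Primary and 2 in Recurrent. It was 14.4% in Primary and 15.9% with the stricter cell filter, 18.8% with the rule on thinned counts and 11.5% with cells carrying other markers left out. In Recurrent it was 16.9%, and 18.1% and 11.2% under the last pair of settings. Of the 30 Long-term dormant cells 15 were left with a C1q sum of at least 10, 18 with Trem2 of at least 2 and 8 with cells carrying other markers left out, and of the 20 Dormant cells 9 were left under the last of these. The counts of genes past 2-fold were 324 higher and 206 lower, and 135 and 40 with a minimum of 100 UMIs, where fewer genes are measured by construction. Under the other 10 settings they ranged from 273 to 446 higher and from 150 to 289 lower. Of 290 gene ratios, 4 whose main interval left out 0 changed sign, and sign changes of ratios whose main interval spanned 0 were not counted: Actb was -0.0241 and Clec10a 0.13 with equal weight per cell, and Lgals1 and Zfp36 were -0.0107 and -0.00751 with the rule on thinned counts. In Mmp12-positive over Mmp12-negative cells of Recurrent, Ccl8 was 0.41 with cells carrying other markers left out. The cause was not tested. Over all settings 2486 of the gene values stayed within the counting interval. Another 107 moved beyond it without a sign change of the kind counted here. Of the list medians, 271 stayed and 4 moved. Another scaling shifted the median of all genes by less than 0.02 on the log2 scale. All 30 variance ratios were lower at 1000 UMIs per cell, as fewer UMIs give by construction.

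No paired analysis was possible because each stage was 1 library and no value comes from a test. The spread between animals is not known, so an interval that leaves out 0 does not show that a stage differs beyond that spread. Zeros of Mmp12, Mrc1, Cd3e and Epcam depend on the depth of a cell, so some cells counted here carry these transcripts unread. The 20 Dormant and 30 Long-term dormant cells hold 142100 and 127939 UMIs in all, where 1 UMI is worth about 7 to 8 CPM, too few for ratios of single genes.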

Other observations

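Complement, iron and sterol genes of the Trem2-positive, Mmp12-negative macrophages belong to no comparison above and are given as values for Primary and Recurrent cells. The receptor genes for the complement fragments C3a and C5a were higher in Recurrent: C3ar1 was at 183 and 268 CPM (log2 ratio 0.56, 0.43 to 0.68) and C5ar1 at 236 and 281 CPM (0.25, 0.14 to 0.36). Cfb, a factor of the alternative pathway, was at 118 and 129 CPM (0.13, -0.03 to 0.29). C4b was at 3.20 and 14.1 CPM, past 2-fold higher, and it was over 5 times higher in another cell set of these libraries, so a part of free RNA was not tested. Cd93 was at 9.80 and 4.12 CPM, past 2-fold lower. The 9 complement genes measured beside C1q had a median of 0.19.

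The ferritin light chain gene Ftl1 was at 21325 and 26301 CPM (0.30, 0.29 to 0.31), while the heavy chain gene Fth1 was at 22164 and 21718 CPM (-0.03). Of 7 iron and haem genes, Hmox1 alone was past 2-fold, and the median was 0.42. Among sterol genes, the cholesterol exporter gene Abca1 was at 163 and 207 CPM (0.35, 0.21 to 0.48) and Mylip, which encodes a ligase that degrades the LDL receptor, at 41.1 and 58.3 CPM (0.50). Nr1h3, the gene of the sterol sensor LXR alpha, was at 24.9 and 14.5 CPM (-0.78, -1.21 to -0.36). Arg1, the arginase gene, was at 84.1 and 137 CPM (0.70, 0.53 to 0.88) and was read in 8.41% and 13.4% of thinned cells, against 0.578% and 1.55% of thinned T cells.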
